A study of Mus musculus with 6 samples.

Results

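Leukocyte adhesion molecules of coronary ECs were examined in hearts with an endothelial deletion of *Wt1*. The group holds the 8 genes *Vcam1*, *Icam1*, *Icam2*, *Sele*, *Selp*, *Madcam1*, *Cd34* and *Podxl*, chosen by symbol for their known roles and found among the 55416 genes counted. The data were 6 RNA-Seq libraries of ECs sorted by FACS for mGFP from E15.5 heart ventricles, 3 from ControlΔEC embryos (Pdgfb-CreERT2/+; Wt1+/+; R26mTmG/+) and 3 from Wt1KOΔEC embryos (Pdgfb-CreERT2/+; Wt1loxP/loxP; R26mTmG/+). Embryos of both genotypes carried the inducible Cre and the mTmG reporter, and all were exposed to tamoxifen, which the dams received between E11.5 and E13.5 at 75 mg/kg. The *Pdgfb* driver limits the deletion to cells in which it was active during those days, and mGFP marks the recombination of the reporter and not that of *Wt1* itself. Whether a library held 1 embryo or a pool is not given in the sources used here, so p-values measure the spread between these libraries.

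Leukocytes leave the blood in steps. Selectins on ECs (E-selectin from *Sele* and P-selectin from *Selp*) capture flowing cells, and immunoglobulin-family proteins then hold them: ICAM-1 and ICAM-2 bind the integrins LFA-1 and, for ICAM-1, Mac-1, VCAM-1 binds the integrin VLA-4, and MAdCAM-1 binds the integrin α4β7. CD34 and podocalyxin (*Podxl*) are sialomucins of the luminal EC surface, and can carry selectin-binding sugars in specialised venules. Several of the 8 genes are classical targets of NF-κB after cytokine exposure, while *Icam2*, *Cd34* and *Podxl* are expressed by resting endothelium.

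The 8 genes lie at 6 chromosomes of GRCm39 in GENCODE vM39. *Sele* (chr1:163867401-163886055, plus strand) and *Selp* (chr1:163942833-163977595, plus strand) lie near each other, and *Cd34* is on the same chromosome (chr1:194621029-194647172, plus strand). *Icam1* (chr9:20926672-20940113, plus strand) ends 555 bases before its paralogue *Icam4*. *Icam2* is at chr11:106263312-106278943 (minus strand), *Vcam1* at chr3:115903598-115923355 (minus strand), *Madcam1* at chr10:79500209-79504371 (plus strand) and *Podxl* at chr6:31496418-31540924 (minus strand).

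Promoter windows of RefSeq on GRCm38.p6, from 250 bases before to 50 bases after the start, were matched for 5 of the 8 genes. They were *Sele*, *Selp*, *Cd34*, *Icam1* and *Madcam1*. The patterns searched on both strands were a loose NF-κB type (GGG, any 2 bases, TT, any base, CC), the NF-κB variant GGAAATTCC, whose matches can overlap those of the first, the TATA box TATAAA, and GCGGGGGCG, of the EGR and WT1 type. A stretch is shown for each gene with a match, with the matched bases in capitals, all 5′ to 3′ on the plus strand of the genome.
Icam1, chr9:21015777-21015805: acttcagtttGGAAATTCCtagatcgcag
Sele, chr1:164048173-164048202: agccagctccccTATAAAgaggctccagca
Madcam1, chr10:79664472-79664501: gctGGGAAAGCCCCctgGGAAAGTCCCaca

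The match in *Icam1* was GGAAATTCC with its first base at -153 from the start, a sequence present in 104 of 32851 promoter windows (0.317%). The *Madcam1* window held 3 matches of the loose NF-κB type read on the opposite strand, with first bases at -84, -83 and -70, the first and second of which overlapped each other; 1575 windows (4.79%) held this pattern. *Sele* had TATAAA at -49 and *Icam1* had it at 13 after the start, and 4473 windows (13.6%) held it. *Selp* and *Cd34* matched none of these, and GCGGGGGCG, found in 955 windows (2.91%), was in none of the 5 windows. These matches describe letters in a window, and the data do not report on binding there.

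The libraries held 26037324 to 44779020 counts, at which 3 counts make 0.0608 to 0.119 CPM (counts scaled by library size and TMM factor), and this floor covers counting error only. *Wt1*, the deleted gene, was at 145, 109.6 and 149 CPM in the Control libraries and at 14, 18.4 and 21.3 CPM in the Wt1KO libraries (Log2FC -2.91, adjusted p = 0.00319, edgeR). The pan-endothelial markers summed to 5739 to 7266 CPM in Control and 5680 to 6596 CPM in Wt1KO, so that EC identity was present in every library.

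A gene was called when edgeR's quasi-likelihood test gave an adjusted p under 0.05 over the 16296 genes tested and the absolute Log2FC was above 0.58. All 8 genes passed the filter on low counts, and none was called, against 12 genes, or 0.0736%, of all genes tested. At an unadjusted p under 0.05 there were 2 of the 8 (*Vcam1*, higher in Wt1KO, and *Cd34*, lower), against 13.1% of all genes. DESeq2, the test the study used, called 1 of the 8 (*Vcam1*), against 4.83% of the genes it tested. Control and Wt1KO libraries had separate ranges for that pair, *Vcam1* and *Cd34*, as 19.3% of all genes did. Of the 8 genes, 5 had a fitted level above Control and 3 below, although *Icam1* and *Podxl* changed sign when only library size was scaled and *Icam2* did so under upper-quartile normalization. The median Log2FC was 0.05 over the 8 genes and -0.03 over all genes tested, of which 48.0% were higher. Scaling by library size alone moved the median of all genes to -0.18, and in these bulk libraries fewer cells of a type and less RNA per cell cannot be told apart.

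**Figure D1:**
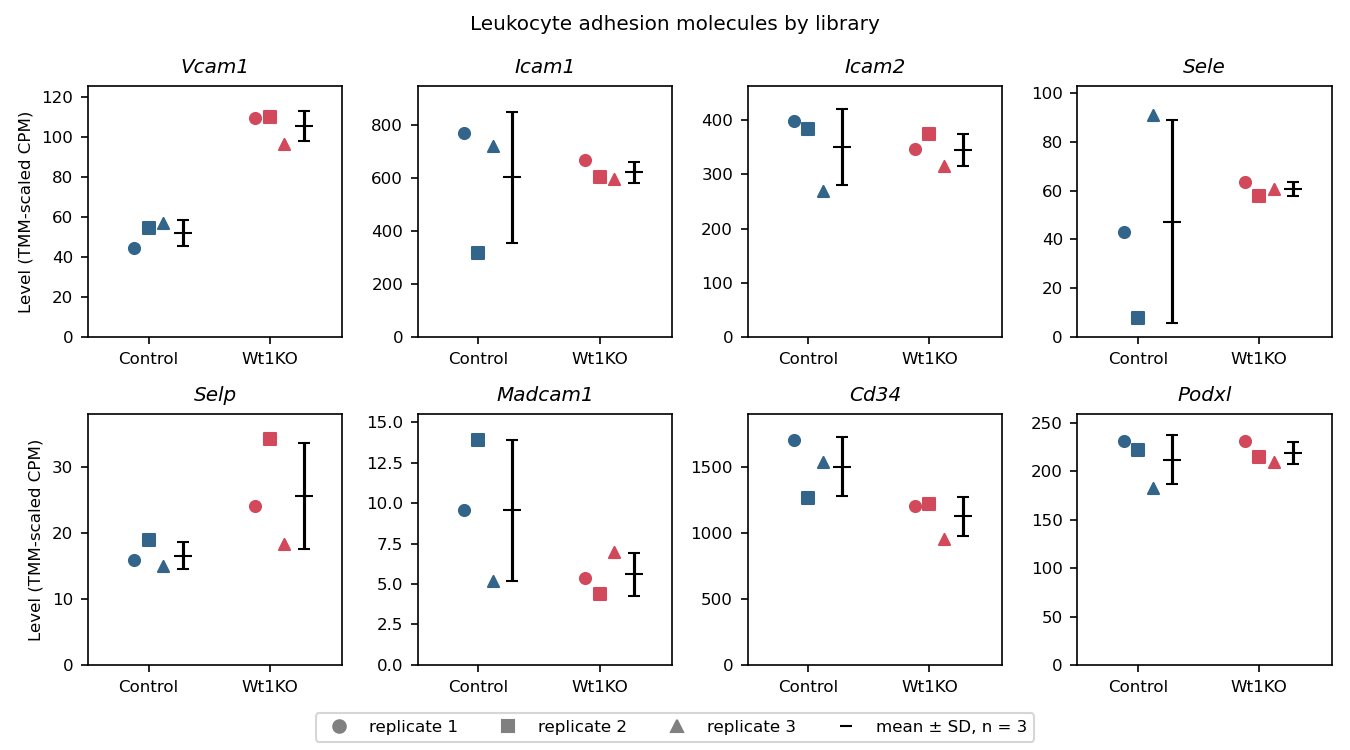
Level of each of the 8 genes in CPM in the 3 Control and 3 Wt1KO libraries, 1 point per library with the mean of each genotype. *Vcam1* is at 44.4 to 57.1 CPM in Control and 96.5 to 109.6 CPM in Wt1KO, while the Control libraries of *Sele* run from 7.87 to 90.9 CPM.

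VCAM-1, the endothelial ligand of the integrin VLA-4, holds rolling mononuclear cells, and its gene was the one member of the 8 that passed DESeq2's call. *Vcam1* was at 44.4, 54.4 and 57.1 CPM in the Control libraries and at 109, 109.6 and 96.5 CPM in the Wt1KO libraries. Every Wt1KO library was above every Control library. The means were 51.9 ± 6.66 CPM and 105 ± 7.46 CPM (SD, n = 3), a ratio of 2.02. In edgeR the Log2FC was 1.02 (SE 0.16, 95% interval 0.65 to 1.39), with an unadjusted p of 0.00015 and an adjusted p of 0.102, so it did not pass the call. In DESeq2 the Log2FC was 1.01 with an adjusted p of 1.4e-06, which passed it. Leaving out 1 library at a time gave 0.92 to 1.09 in edgeR, with adjusted p-values from 0.0616 to 0.381. In edgeR the gene passed with no filter on low counts (adjusted p = 0.0053) and with at least 10 counts required in every library (adjusted p = 0.0348). *Vcam1* is among the genes the study singled out from these same libraries, so its direction here is not independent evidence.

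Set against *Pecam1* and *Cdh5*, a pair of EC junction genes, *Vcam1* kept its separation between genotypes. The log2 ratio of *Vcam1* CPM to the geometric mean of the pair was -4.06 ± 0.33 in Control and -3.06 ± 0.07 in Wt1KO (SD, n = 3), a difference of 1.00 (two-sided exact permutation p = 0.1, the smallest that 3 against 3 libraries allow, 1 of 8 such comparisons). Marker lists of cells that can also express VCAM-1 differed between genotypes. The 8 endocardial markers summed to 442 to 536 CPM in Control and 885 to 1012 CPM in Wt1KO. All 8 had a higher fitted level in Wt1KO (7 with library size only), and 1 of them, *Plvap*, was called by edgeR and 5 by DESeq2. *Plvap* was at 68.1 CPM in Control and 338 CPM in Wt1KO. The study named *Gata4*, also on this list, among genes higher in the mutant that should fall during coronary development. The 9 fibroblast markers summed to 720 to 1063 CPM in Control and 1455 to 1642 CPM in Wt1KO, 8 higher (7 with library size only), 1 called by edgeR and 4 by DESeq2, and the 9 epicardial markers to 42.6 to 49.2 CPM and 67.7 to 80.5 CPM, 7 higher, none called by edgeR and 2 by DESeq2. Of the fibroblast list, the study counted *Col1a1*, *Col3a1* and *Dcn* as venous markers that rose in the mutant ECs. It also named *Col1a1* among fibroblast genes that had relatively low counts after the sort. With this driver the study saw no mGFP in the ventricular endocardium or epicardium. Markers of other cells were still counted after the sort, with erythroid markers at 6576 to 14369 CPM in Control and 5114 to 8508 CPM in Wt1KO. The part of endocardial, fibroblast and epicardial cells in the *Vcam1* difference was not tested.

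**Figure D2:**
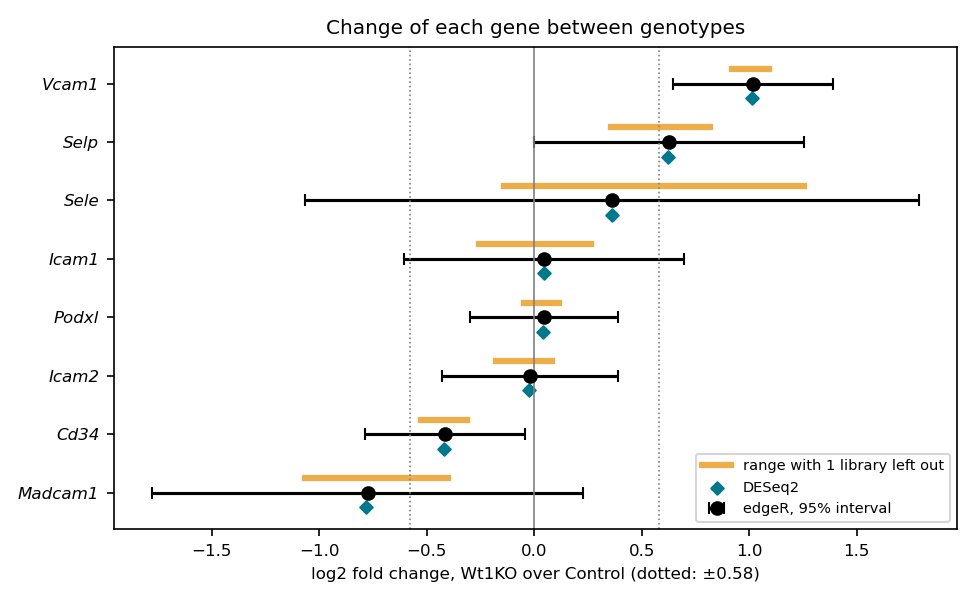
Log2FC of each gene, Wt1KO over Control, from edgeR with its 95% interval (black), from DESeq2 (diamonds), and the range when each of the 6 libraries was left out in turn (orange bar); dotted lines mark ±0.58. Only the intervals of *Vcam1* (0.65 to 1.39) and *Cd34* (-0.79 to -0.04) exclude 0, and the range of *Sele* runs from -0.14 to 1.25.

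*Icam1* encodes the inducible ligand of LFA-1 and Mac-1, and *Icam2* the constitutive ligand of LFA-1. *Icam1* was at 771, 319 and 721 CPM in Control and at 669, 605 and 596 CPM in Wt1KO. The genotypes overlapped, because Control replicate 2 lay below every Wt1KO library and the other Control libraries above them. The means were 604 ± 248 CPM and 623 ± 40.0 CPM (SD, n = 3), with a Log2FC of 0.05 (SE 0.29, 95% interval -0.61 to 0.70, edgeR adjusted p = 0.976). Without Control replicate 2 the Log2FC was -0.26, and without Control replicate 1 it was 0.26.

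*Icam2* was at 398, 384 and 270 CPM in Control and at 346, 374 and 316 CPM in Wt1KO. All Wt1KO libraries fell inside the Control range, with means of 350 ± 70.2 CPM and 345 ± 29.4 CPM (SD, n = 3). The Log2FC was -0.02 (SE 0.18, 95% interval -0.43 to 0.39, edgeR adjusted p = 0.983), an interval that leaves out a change of 0.58 in either direction. The log2 ratio of *Icam2* to *Icam1* within a library, which scaling cannot move, was -0.96, 0.27 and -1.42 in Control and -0.95, -0.69 and -0.92 in Wt1KO. Control replicate 2 alone had more *Icam2* than *Icam1* counts. The difference of the genotype means was -0.15 (two-sided exact permutation p = 1.0) and 0.33 without Control replicate 2, so its sign rested on that library.

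E-selectin, the selectin that activated ECs make anew, had the most variable transcript of the 8 in Control and the least variable in Wt1KO. *Sele* was at 43.1, 7.87 and 90.9 CPM in Control and at 63.6, 57.7 and 60.6 CPM in Wt1KO. The Wt1KO libraries were close to one another and inside the Control range, of which Control replicate 2 was the low end. The highest Control library was 11.6 times the lowest, a span reached by 22 of the 8472 genes averaging 10 CPM or more (0.26%), and in Wt1KO it was 1.1 times. The coefficient of variation was 88.2% in Control and 4.87% in Wt1KO. The means were 47.3 ± 41.7 CPM and 60.7 ± 2.96 CPM (SD, n = 3), with a Log2FC of 0.36 (SE 0.63, 95% interval -1.06 to 1.79, edgeR adjusted p = 0.890). Without Control replicate 2 it was -0.14, and without Control replicate 3 it was 1.25.

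*Icam1* shared the low value in Control replicate 2. Its highest Control library was 2.42 times the lowest, as wide a span as 834 of the 8472 genes (9.84%) had, and 1.12 times in Wt1KO. Wider spread in Control was common in these data, with a higher coefficient of variation in Control for 5906 of the 8472 genes (69.7%). Control replicate 2 was lower than both other Control libraries by more than a factor of 2 for 205 genes (2.42%) and higher by as much for 161 genes (1.90%). Each of the other libraries stood so far below both others of its genotype for 26 to 173 genes, and above them for 17 to 45 genes. Immediate early genes, a list of 10 added after values were seen, summed to 1436 CPM in Control replicate 2, 1773 and 1965 CPM in the other Control libraries, and 2256 to 2599 CPM in Wt1KO. All 10 had a higher fitted level in Wt1KO (8 with library size only), none was called by edgeR and 3 were called by DESeq2. Markers of macrophages and other leukocytes summed to 1063 CPM in Control replicate 2, 526.5 and 359 CPM in the other Control libraries and 284 to 392 CPM in Wt1KO. The part of either list in the *Sele* and *Icam1* values was not tested.

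**Figure D3:**
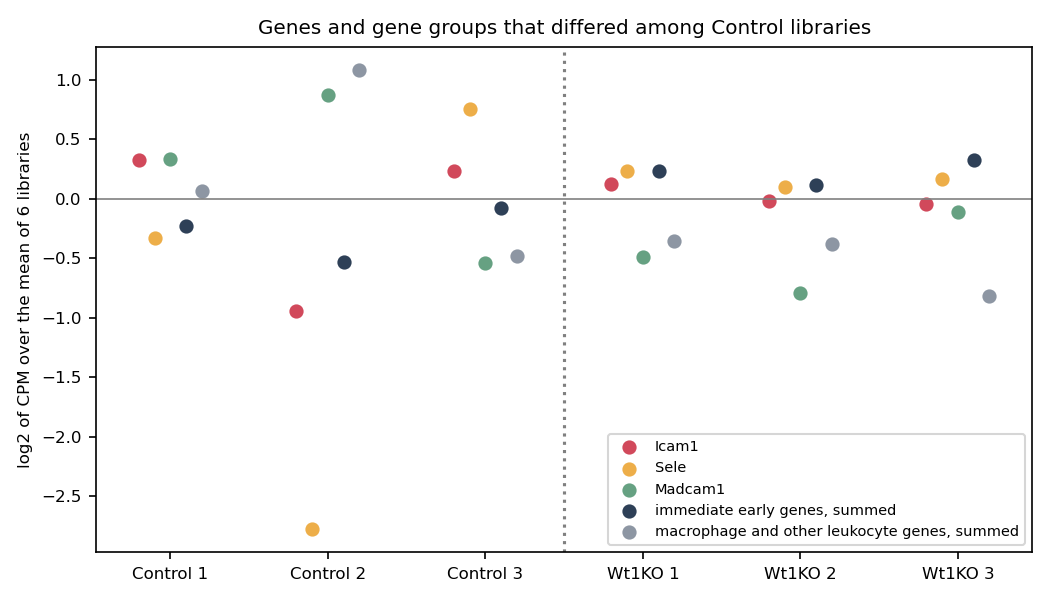
Log2 of CPM over the mean of the 6 libraries for *Icam1*, *Sele*, *Madcam1*, the summed immediate early genes and the summed macrophage and other leukocyte markers, by library. Control replicate 2 has the lowest *Icam1* (319 CPM) and *Sele* (7.87 CPM) and the highest *Madcam1* (13.9 CPM) and leukocyte sum (1063 CPM).

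P-selectin is stored in granules of ECs and platelets and reaches the surface within minutes of stimulation. *Selp* was at 15.9, 18.9 and 14.95 CPM in Control and at 24.1, 34.3 and 18.4 CPM in Wt1KO. The genotypes overlapped by the narrow margin of Wt1KO replicate 3 under Control replicate 2. The means were 16.6 ± 2.08 CPM and 25.6 ± 8.05 CPM (SD, n = 3), a ratio of 1.54. The Log2FC of 0.63 (SE 0.28, 95% interval -0.00 to 1.25) had an unadjusted p of 0.0506 and an adjusted p of 0.383 in edgeR. It was 0.36 without Wt1KO replicate 2 and 0.82 without Wt1KO replicate 3. The 8 platelet and megakaryocyte markers, cells that also make P-selectin, summed to 34.8 to 66.3 CPM in Control and 17.0 to 59.1 CPM in Wt1KO, with 2 higher (1 with library size only), 6 lower and none called by either test.

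MAdCAM-1, the ligand of the gut-homing integrin α4β7, was the least abundant of the 8 by mean CPM. *Madcam1* was at 9.57, 13.9 and 5.20 CPM in Control and at 5.40, 4.38 and 7.005 CPM in Wt1KO, from 150 to 685 counts per library. Control replicate 3 lay among the Wt1KO libraries and the other Control libraries above them. The means were 9.55 ± 4.34 CPM and 5.60 ± 1.32 CPM (SD, n = 3), a ratio of 0.585. The Log2FC was -0.77 (SE 0.44, 95% interval -1.78 to 0.23, edgeR adjusted p = 0.519), and it ranged from -1.07 without Control replicate 3 to -0.40 without Control replicate 2.

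CD34 was the most abundant of the 8 by CPM in every library. *Cd34* was at 1700.3, 1260.4 and 1535 CPM in Control and at 1201, 1215 and 955 CPM in Wt1KO. No Wt1KO library reached the lowest Control library, but Control replicate 2 and Wt1KO replicate 2 were close. The means were 1498 ± 222 CPM and 1124 ± 146 CPM (SD, n = 3), a ratio of 0.75. The Log2FC was -0.42 (SE 0.17, 95% interval -0.79 to -0.04), with an unadjusted p of 0.0332 and an adjusted p of 0.335 in edgeR and an adjusted p of 0.143 in DESeq2. It ranged from -0.52 to -0.31 when 1 library was left out and was -0.56 when only library size was scaled. Relative to *Pecam1* and *Cdh5* the difference was -0.43 (two-sided exact permutation p = 0.1).

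Podocalyxin, the relative of CD34 that lines EC lumens, gave close values in all libraries. *Podxl* was at 231, 222 and 183 CPM in Control and at 232, 215 and 209.9 CPM in Wt1KO. The genotypes overlapped, with means of 212 ± 25.5 CPM and 219 ± 11.49 CPM (SD, n = 3). The Log2FC was 0.04 (SE 0.15, 95% interval -0.30 to 0.39, edgeR adjusted p = 0.952), an interval within ±0.58. The log2 ratio of *Cd34* to *Podxl* within a library was 2.88, 2.51 and 3.07 in Control and 2.37, 2.5 and 2.19 in Wt1KO. Every Wt1KO library was below every Control library, by the least margin between replicate 2 of each genotype. The means were 2.82 ± 0.28 and 2.35 ± 0.16 (SD, n = 3), a difference of -0.46 (two-sided exact permutation p = 0.1).

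On the scale set by *Pecam1* and *Cdh5*, the libraries of the genotypes overlapped for each of the other 6 genes. The log2 differences were 0.13 for *Icam1* (two-sided exact permutation p = 0.8), -0.03 for *Icam2* (exact p = 1.0), 0.93 for *Sele* (exact p = 0.5), 0.56 for *Selp* (exact p = 0.3), -0.71 for *Madcam1* (exact p = 0.3) and 0.03 for *Podxl* (exact p = 0.9). *Sele* had the largest shift from its edgeR value of 0.36, the mean of log ratios giving more weight to the low Control replicate 2. Without that library its difference on this scale was 0.08.

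Compared per kb of annotated exon, a rough scale for setting levels of different genes side by side, the 8 genes formed 3 tiers in Control. *Cd34* (125 CPM per kb) and *Icam1* (121.5 CPM per kb) led and overlapped each other. *Icam2* (47.2 CPM per kb) and *Podxl* (38.5 CPM per kb) followed, overlapped each other and were apart from *Icam1* above and *Sele* below. *Sele* (12.3 CPM per kb), *Madcam1* (5.90 CPM per kb) and *Vcam1* (5.78 CPM per kb) overlapped from neighbour to neighbour. *Selp* (3.76 CPM per kb) was below *Vcam1* without overlap, but its libraries lay inside the Control ranges of *Sele* and *Madcam1*.

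In Wt1KO the order was *Icam1* (125 CPM per kb), *Cd34* (93.9), *Icam2* (46.5), *Podxl* (39.7), *Sele* (15.8), *Vcam1* (11.7), *Selp* (5.80) and *Madcam1* (3.45), all in CPM per kb. The only neighbours whose libraries overlapped were *Selp* and *Madcam1*. *Vcam1* thus stood 7th in Control and 6th in Wt1KO, and *Madcam1* 6th and 8th. Ordered by CPM, *Vcam1* was 5th and *Madcam1* 8th in both genotypes, so these changes of place rested on the length scale. The length is the union of all annotated exons, which lowers the value of a gene with long and seldom used exons. It was 11.961 kb for *Cd34*, 8.992 kb for *Vcam1* and 7.425 kb for *Icam2*, so order and tiers depend in part on the annotation. By CPM alone *Cd34* led in both genotypes.

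**Figure D4:**
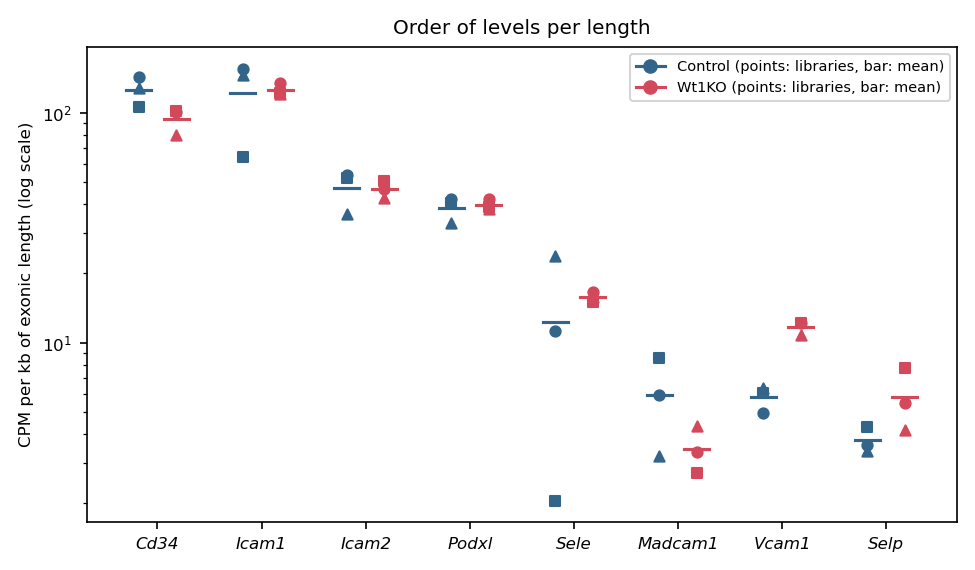
Level of each gene in CPM per kb of exonic length (log scale), 1 point per library, Control and Wt1KO side by side. *Cd34* and *Icam1* are the highest in both genotypes, and *Selp* (3.76 CPM per kb) in Control and *Madcam1* (3.45 CPM per kb) in Wt1KO are the lowest.

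The 8 genes summed to 3213, 2280.2 and 2877 CPM in Control and to 2650.5, 2615 and 2259 CPM in Wt1KO. *Cd34* made up 52.9%, 55.3% and 53.3% of the sum in Control and 45.3%, 46.5% and 42.3% in Wt1KO, a share that did not overlap between genotypes. *Icam1* made up 24%, 14% and 25.1% in Control and 25.3%, 23.1% and 26.4% in Wt1KO. Its share overlapped between genotypes, and Control replicate 2 was the one low value.

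Genes whose log2 CPM most resembled each gene over the 6 libraries were taken by Pearson's r among 8471 others averaging 10 CPM or more, which leaves out *Madcam1* as a reference. For *Vcam1* they were *S1pr1* (r = 0.995), the sphingosine 1-phosphate receptor of ECs, *Clca3a1* (0.992) and the endocardial marker *Hapln1* (0.987). *S1pr1* was at 334 CPM in Control and 475 CPM in Wt1KO. For *Cd34* they were *Colgalt2* (r = 0.998), *Ralgds* (0.991) and *Bag4* (0.986), and for *Selp* *Txndc5* (0.991), *Ece1* (0.987) and *Abhd16a* (0.981). For *Icam1* they were *Pomt1*, *Rab9* and *Phtf2*, for *Sele* *5730455P16Rik*, *Ndufa9* and *Dph2*, for *Icam2* *Vti1b*, *Exog* and *Car7*, and for *Podxl* *Inka1*, *Clpp* and *Gm42742*, with r from 0.978 to 0.9997. With 6 libraries in 2 genotypes, the points share genotype and library, and the best of so many genes has a high r.

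Beyond the 8 genes, 7 lists of 93 genes covered the rest of the adhesion machinery, of which 87 were tested, 36 with a higher and 51 with a lower fitted level in Wt1KO (22 and 65 with library size only). Of the 87, 1 was called by edgeR, 5 by DESeq2, and 16 had an unadjusted p under 0.05 (4 higher and 12 lower). Their median Log2FC was -0.09, beside -0.03 over all genes tested.

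Among other endothelial adhesion and transmigration proteins, 4 of 13 tested were higher (3 with library size only) and 9 lower, and *Aoc3* fell. *Aoc3* encodes VAP-1, an amine oxidase on the surface of ECs, smooth muscle and fat cells. It was at 23.9, 11.2 and 14.05 CPM in Control and at 0.793, 0.534 and 0.356 CPM in Wt1KO (Log2FC -4.84, SE 0.51, edgeR adjusted p = 0.0204). The Log2FC ranged from -5.18 to -4.47 with 1 library left out, and the call was lost without Control replicate 1 (adjusted p = 0.0958), without Wt1KO replicate 1 (0.0804), 2 (0.129) or 3 (0.132), and with limma-voom (0.129). DESeq2 called *Aoc3* (adjusted p = 1.28e-19), also on the genes kept (4.28e-17) and with a replicate block (4.195e-19). The study singled out *Aoc3* from these same libraries too, so its direction is not independent evidence. No other gene of this list was called by either test. *Cd44* (Log2FC -0.35) and *Nectin2* (Log2FC 0.48), chosen after their values were seen, had unadjusted p-values under 0.05 and adjusted p-values of 0.365 and 0.273 in edgeR. The 9 mural markers, from cells that also express *Aoc3*, summed to 469 to 637 CPM in Control and 327 to 382 CPM in Wt1KO, with 1 of 8 tested higher, none called by edgeR and 3 by DESeq2, and their part in the *Aoc3* value was not tested. Of this mural list, the study counted *Rgs5* and *Kcnj8* as arterial markers.

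Of 12 leukocyte integrins and other counter-receptors, 3 were higher and 9 lower in Wt1KO, none was called by edgeR and *Itgam* and *Glg1* were called by DESeq2, with a median Log2FC of -0.45. *Itgal*, the α chain of LFA-1, was at 13.2 ± 7.27 CPM in Control and 5.02 ± 1.65 CPM in Wt1KO (SD, n = 3; Log2FC -1.40, edgeR adjusted p = 0.276). *Itgam*, the α chain of Mac-1, was at 4.63 and 0.351 CPM (Log2FC -3.74, edgeR adjusted p = 0.297). It had 4, 0 and 24 counts in the Wt1KO libraries, and its Log2FC ranged from -6.39 to -3.15 with 1 library left out. *Glg1*, an E-selectin ligand of the Golgi, was at 148 and 86.7 CPM (Log2FC -0.77, edgeR adjusted p = 0.224). All 12 tested markers of macrophages and other leukocytes were lower in Wt1KO, none called by edgeR and 2 by DESeq2. The most abundant, *Csf1r*, was at 195 CPM in Control and 73.9 CPM in Wt1KO, and *Cd3e* and *Ly6g* were at 0 in every library. The part of these cells in the integrin values was not tested.

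Enzymes that build selectin ligands had 7 of 12 tested genes higher (6 with library size only) and 5 lower, none called by edgeR or DESeq2. *B3gnt3*, which extends core glycans of selectin ligands, was at 39.2 ± 19.0 CPM in Control and 72.6 ± 2.20 CPM in Wt1KO (SD, n = 3; Log2FC 0.89, edgeR adjusted p = 0.274), and passed the call without Control replicate 2 (Log2FC 1.36, adjusted p = 0.0467). *St3gal4* (Log2FC 0.55, adjusted p = 0.429) and *Chst1* (Log2FC -1.07, adjusted p = 0.436) came next by unadjusted p. *Fut7* and *Chst4*, which complete selectin ligands in leukocytes and high endothelial venules, were at 0 counts in all libraries, as was *Glycam1*, a secreted selectin ligand.

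Sialomucins and glycocalyx proteins other than *Cd34* and *Podxl* had 5 of 9 tested genes higher and 4 lower (4 and 5 with RLE size factors or library size only), with none called by edgeR and *Hspg2* called by DESeq2. *Hspg2*, the basement membrane proteoglycan perlecan, was at 1143 CPM in Control and 695 CPM in Wt1KO (Log2FC -0.72, edgeR adjusted p = 0.257). *Emcn*, the venous and capillary sialomucin endomucin, was at 344 and 455 CPM (Log2FC 0.41, adjusted p = 0.332). *Sdc3*, a heparan sulphate proteoglycan, had a Log2FC of -1.03 (adjusted p = 0.387), and passed the call without Control replicate 3 (Log2FC -1.46, adjusted p = 0.0287). The sialomucin *Emcn* thus had a Log2FC above 0 while that of *Cd34* was below 0, and neither passed the call.

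Cytoplasmic partners of ICAMs and podocalyxin, which link them to actin, had 5 of 12 genes higher and 7 lower (6 and 6 with upper-quartile normalization, 2 and 10 with library size only) and none called by either test. The actin cross-linker *Flna* had a Log2FC of -0.39 (edgeR adjusted p = 0.349) and the podocalyxin partner *Slc9a3r1* a Log2FC of 0.70 (edgeR adjusted p = 0.457). The list of 6 genes for sheddases, the proteases that cut adhesion molecules from the surface, and their inhibitor *Timp3* had 3 higher and 3 lower (0 and 6 with library size only) and none called by either test. *Adam17*, which sheds VCAM-1, was at 112 and 84.2 CPM (Log2FC -0.41, adjusted p = 0.293), and *Adam8* and *Adam15* had Log2FC values of -1.14 and -0.27 (adjusted p = 0.533 and 0.612).

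NF-κB factors, their regulators and cytokine receptors had 9 of 23 genes higher and 14 lower (4 and 19 with library size only), none called by edgeR and *Chuk* called by DESeq2, a call lost with DESeq2 on the genes kept (adjusted p = 0.0783) or with a replicate block (0.101). *Chuk*, which encodes the kinase IKKα, was at 38.8 CPM in Control and 24.7 CPM in Wt1KO (Log2FC -0.65, edgeR adjusted p = 0.244). *Tnfrsf1b*, the second TNF receptor, was at 91.0 and 46.7 CPM (Log2FC -0.96, adjusted p = 0.263), and passed edgeR's call with no filter (adjusted p = 0.0487) and that of DESeq2 with a replicate block (0.00839). The gene *Traf6*, an adaptor of IL-1 and Toll-like receptor signalling, was at 22.5 and 39.2 CPM (Log2FC 0.80, adjusted p = 0.303). The median Log2FC of the list was -0.15.

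**Figure D5:**
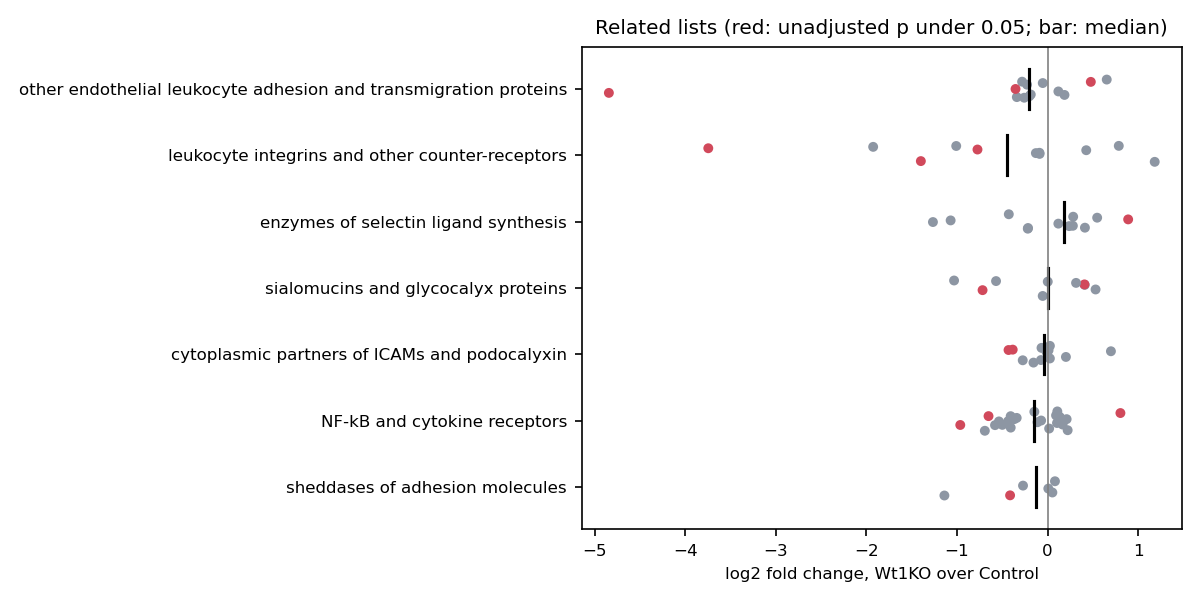
Log2FC, Wt1KO over Control, of the tested genes of 7 related lists, 1 point per gene, red where the unadjusted edgeR p was under 0.05, with the median of each list as a black bar. Of the genes tested, 1 counts in its median but is not drawn. *Aoc3* (-4.84) lies farthest from 0 among the points drawn.

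The remaining marker lists describe the sorted cells. The 6 venous markers summed to 860 to 910 CPM in Control and 816 to 1081 CPM in Wt1KO, 4 higher (3 with library size only) and none called by either test. The 5 lymphatic markers summed to 63.8 to 117 CPM and 190 to 287 CPM, all 5 higher, none called by edgeR and 2 by DESeq2. Erythroid markers summed to 6576 to 14369 CPM in Control and 5114 to 8508 CPM in Wt1KO (2 of 8 higher), and cardiomyocyte markers to 194 to 270 CPM and 158 to 351 CPM (8 of 9 tested higher, 4 with library size only), with none called by edgeR in either list and 2 erythroid and 0 cardiomyocyte markers called by DESeq2. Library identifiers run in sequence within each genotype, and separate handling of the genotypes, which no source used here states, cannot be told apart from genotype.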

How the data were processed

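Sorted mGFP+ ECs were sequenced by the authors with SMART-seq2, which primes from poly(A) with oligo-dT and uses neither molecular identifiers nor strand. The authors aligned reads with STAR 2.7.8a and quantified GENCODE genes with RSEM 1.3.0; the methods name GRCm39 and the submitters' processing notes GRCm38. The deposited values are expected counts per gene as whole numbers, not normalized, with 26037324 to 44779020 per library. Groups came from the sample labels.

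The comparison was fitted to the counts by edgeR 4.0.16 under R 4.3.3 (TMM, quasi-likelihood F test, Benjamini-Hochberg). Genes with at least 10 counts in 2 or more libraries were tested, and a call needed an adjusted p under 0.05 and an absolute Log2FC above 0.58. The SE is the absolute Log2FC over the square root of F. DESeq2 1.42.0 at default settings (the study used DESeq2 1.18), limma-voom (limma 3.58.1), other normalizations and filters, the replicate number as a block and leaving out each library were alternatives. Single ratios were compared by exact permutation over libraries. The steps were tested on simulated data. The members and lists were chosen with earlier results of these data known. Named genes were the 8 members, the called genes of each list or otherwise its 3 smallest p-values, *Wt1*, the most abundant or absent markers, and the 3 genes most like a member; exceptions are said where they occur. *Cd99*, on the list of adhesion proteins, was not analysed here. Values of 2 other list genes are not reported here.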

Additional observations from a re-analysis of the deposited data

How the results depend on the processing

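The count of called members was 0 in the analysis reported and 1, *Vcam1*, with DESeq2, with no filter on low counts, with at least 10 counts in every library, with an unadjusted p, with DESeq2 on the genes kept, and with DESeq2 and a replicate block; it was 0 to 0 when each library was left out. The related lists had 1 call, 5 with DESeq2, and 0 to 2 without single libraries. Over all genes there were 12 calls (8 higher, 4 lower), 11 (5 and 6) with library size only, 8 with limma-voom, 767 with DESeq2, 599 on the genes kept and 857 with its block, 296 with no filter, 113 with at least 10 counts in every library, 1652 with an unadjusted p, and 2 to 37 with 1 library left out. The Log2FC of *Icam1* was -0.090 with library size only and ranged from -0.26 to 0.26 with a library left out, that of *Icam2* was 0.0048 with upper-quartile normalization and ranged from -0.18 to 0.081, that of *Sele* from -0.14 to 1.25, and that of *Podxl* was -0.11 with library size only and ranged from -0.049 to 0.11. *Sele* had a Log2FC of 1.13 with limma-voom. Relative to *Pecam1* and *Cdh5*, *Icam1* ranged from -0.13 to 0.36, *Icam2* from -0.36 to 0.20 (0.045 against *Pecam1* alone, 0.023 against the 10 EC markers) and *Podxl* from -0.23 to 0.22 (-0.042 against *Cdh5* alone). *Icam2* over *Icam1* ranged from -0.51 to 0.33. Signs of *Vcam1*, *Selp*, *Madcam1* and *Cd34* held under all alternatives run; the cause of the changes was not tested. The 2 alternatives with DESeq2 on the genes kept and with its block were chosen after seeing the data. Same-numbered libraries deviated with r of 0.057, 0.0045 and 0.020, so the numbers were not taken to pair them; with the replicate block 5 genes and no member (0) were called, and *Vcam1* had a Log2FC of 1.02. With 3 libraries per genotype, only the 95% intervals of *Icam2* and *Podxl* lie within ±0.58. Those of *Icam1*, *Sele*, *Selp*, *Madcam1* and *Cd34* do not leave out changes of 0.58 in size, and that of *Vcam1* lies above 0.58.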
